A study of Mus musculus with 8 samples.

Results

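miR-26a and miR-26b are paralogous microRNAs (miRNAs) that were followed here in RNA bound to the RNA-induced silencing complex (RISC) of mouse brain. A sequence was a member when the deposited table named it mmu-miR-26a-5p, mmu-miR-26b-5p or mmu-miR-26b-3p. The members were 566 of 47204 distinct sequences and 3 of 895 named miRNAs. Of these sequences, 451 belonged to miR-26a-5p, 106 to miR-26b-5p and 9 to miR-26b-3p.

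Cortex and hippocampus of 8 mice were used, of which 4 were 5XFADtg/Rubicon het (Rubicon+/-) and 4 were 5XFADtg/Rubicon ko (Rubicon-/-), called het and ko from here on. All 8 mice thus carried the 5XFAD transgenes, which are driven in neurons by the Thy1 promoter, and the het mice had already lost 1 copy of Rubicon, a gene that restrains autophagy. They were females on a mixed C57BL/6J/SJL background, aged 6 or 8 months in the description of the animals and 6 months in that of the RISC comparison. The latter also counts 3 het mice, whereas 4 het libraries from different mice are labelled, and all 4 were used here. Argonaute complexes were pulled down with a GW182 peptide and their small RNAs were sequenced. Rubicon itself is not read by this assay, so the genotypes rest on the labels.

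Libraries held from 509839 to 19878054 reads, and 2 of them, ko replicates 1 and 2, held over 5000000. Levels are CPM, reads per 1000000 reads of a library. Pearson's r between libraries over log2 miRNA levels lay between 0.918 and 0.978. Neuronal marker miRNAs (miR-124-3p, miR-128-3p, miR-9-5p, miR-138-5p and miR-129-5p) were abundant in every library, with summed levels of 155954 to 198553 CPM in het and 153074 to 254591 CPM in ko. Since the tissue was lysed in bulk, fewer cells of a type and less RNA per cell cannot be told apart.

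A miRNA guides Argonaute to messenger RNAs through its seed, bases 2 to 8 from the 5′ end, and the 5p and 3p names give the 2 arms of the hairpin it is cut from. The arm that stays in Argonaute is the guide, and the other is mostly lost. miR-26 is hosted by genes of the small C-terminal domain phosphatases (Ctdsp), which work with the repressor REST to keep neuronal genes off outside neurons, and miR-26b is known to repress Ctdsp2 in neurogenesis of the zebrafish. Bases may be added to the 3′ end of a finished miRNA by terminal transferases, which leave a tail that the genome does not encode.

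The mature sequences are shown because the paralogs share the seed and differ in few other bases. They are RefSeq entries on GRCm38.p6, with the seed in capitals.
mmu-miR-26a-5p: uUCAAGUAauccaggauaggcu
mmu-miR-26b-5p: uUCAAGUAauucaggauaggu
mmu-miR-26b-3p: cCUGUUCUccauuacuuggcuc
Over the first 22 bases of the hairpins from the mature start, 20 were the same in miR-26a-5p and miR-26b-5p (90.9%). The differences were C11U and C21U, with the miR-26a-5p base first and positions counted from 1 at the 5′ end. Among 1679 RefSeq mouse mature miRNAs, 2 carried the seed of bases 2 to 8 of the 5p members, and these were the 5p members themselves. The seed of miR-26b-3p was carried by 4, one of them miR-26a-2-3p. The RefSeq miR-26b-5p is 21 nt long and that of miR-26a-5p is 22 nt, which bears on the read lengths given later.

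The genome holds 1 copy of miR-26b and 2 of miR-26a, and all lie on the plus strand. Mir26b is at chr1:74394310-74394394, in an intron of Ctdsp1, and its mature 5p arm at chr1:74394324-74394344. Mir26a-1 is at chr9:119031796-119031885 in an intron of Ctdspl. Mir26a-2 is at chr10:126995530-126995613 in Ctdsp2, where it shared at most 1 base with an annotated Ctdsp2 exon in GENCODE M21. The 22 bases of miR-26a-5p are identical in both copies and so are the 3 bases after them, so its reads cannot be assigned to a copy by their 3′ end.

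miR-26a-5p was among the most abundant miRNAs of the RISC, ranking from 1 to 4 in the single libraries. Its level was 54010, 55918, 67960 and 76023 CPM in het replicates 1 to 4. In ko replicates 1 to 4 it was 80409, 64567, 75983 and 44452 CPM. The highest and the lowest library were both ko, and the groups overlapped. Het mice had a mean of 63478 ± 10397 CPM and ko mice one of 66353 ± 16054 CPM (SD, n = 4 each). Counting error was small beside this spread, since the 95% Wilson interval in the shallowest library (het replicate 1) was 53398 to 54629 CPM.

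miR-26b-5p, which carries the same seed, was lower by an order of magnitude and ranked from 41 to 68. Its level was 3610, 3444, 3557 and 2265 CPM in het replicates 1 to 4. In ko replicates 1 to 4 it was 4643, 3911, 3274 and 2362 CPM. The groups overlapped again. Het replicate 4 stood apart below the other het libraries, while ko replicate 4 was the lowest of evenly spread ko values. Het mice averaged 3219 ± 640 CPM and ko mice 3547 ± 968 CPM (SD, n = 4 each).

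miR-26b-3p, the arm opposite the guide, was scarce, and close to the detection limit in shallow libraries such as het replicate 1 and ko replicate 4. It had 6, 8, 28 and 12 reads in het replicates 1 to 4 and 52, 162, 18 and 2 reads in ko replicates 1 to 4. In CPM these are 11.6, 5.50, 10.9 and 4.51 for the het and 6.62, 8.13, 7.73 and 1.96 for the ko libraries, where 3 reads were worth from 0.151 to 5.79 CPM. Het mice averaged 8.12 ± 3.63 CPM and ko mice 6.11 ± 2.84 CPM. The 95% Wilson interval of the ko replicate 4 value was 0.537 to 7.15 CPM. The genotypes overlapped, and their difference was smaller than the spread within either of them.

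**Figure D1:**
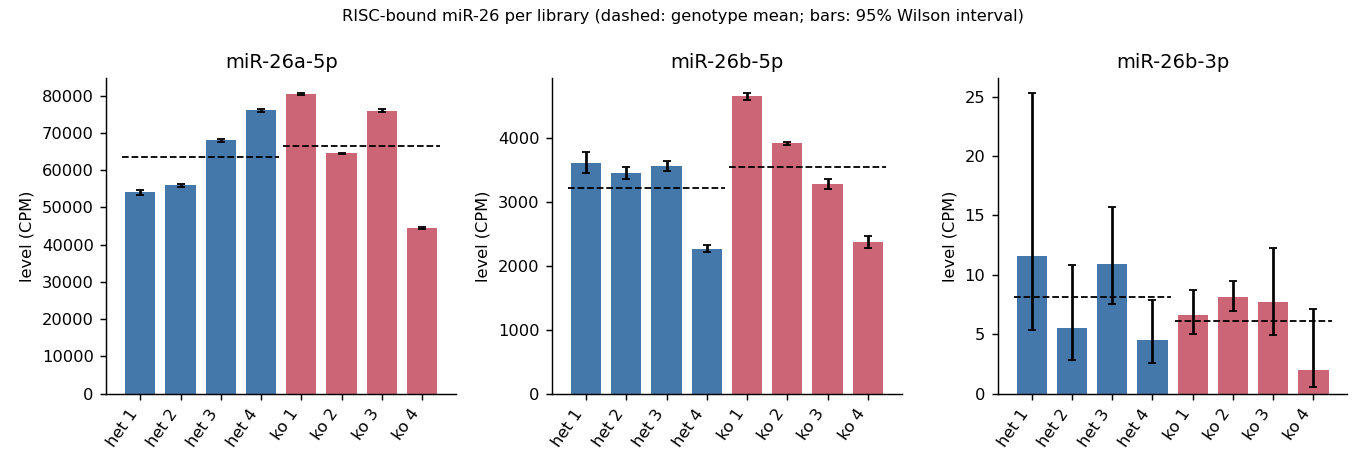
Level of the 3 miR-26 miRNAs in each library, in CPM on the y axis of each panel, with het libraries in blue, ko libraries in red, genotype means as dashed lines and 95% Wilson intervals (counting error) as error bars. miR-26a-5p ran from 44452 to 80409 CPM and miR-26b-5p from 2265 to 4643 CPM, with overlapping genotypes, and miR-26b-3p ran from 1.96 to 11.6 CPM, where the interval of the lowest library reached 7.15 CPM.

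Neither guide differed between the genotypes beyond the spread between mice. With limma on log2(CPM + 1), miR-26a-5p had a log2 fold change of 0.04 (ko minus het, SE 0.23, adjusted p = 0.975 by Benjamini-Hochberg). The 95% interval of this difference was -0.45 to 0.53, that is 0.734-fold to 1.45-fold. The log2 value of miR-26b-5p was 0.12 (SE 0.28; adjusted p = 0.975 in the same limma fit), with an interval of 0.719-fold to 1.65-fold. Thus 0 of the 2 members tested were called, against 1.30% of the 463 miRNAs that averaged 10 CPM or more. At an unadjusted p under 0.05, limma again had 0 of the 2, against 7.34% of all tested. edgeR and DESeq2 called 0 of the 2 as well, against 4 and 9 of the 463. The sign of both fold changes depended on the libraries used. Without ko replicates 1 and 2, the log2 fold change was -0.11 for miR-26a-5p and -0.19 for miR-26b-5p.

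The median log2 fold change of all 463 miRNAs was -0.09, and centring each library on its median moved it to 0.13. After centring, the log2 fold change was 0.26 for miR-26a-5p and 0.34 for miR-26b-5p, both not past the threshold (limma adjusted p = 0.802). miR-26b-3p did not reach the mean of 10 CPM. In the fit with a mean of at least 1 CPM, miR-26b-3p had -0.39 on the log2 scale (SE 0.57; adjusted p = 0.989 by limma over 698 miRNAs).

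Compared with other miRNAs, both guides varied little from mouse to mouse. The coefficient of variation over the 8 libraries was 19.4% for miR-26a-5p and 23.04% for miR-26b-5p, while the median over the 463 miRNAs was 34.2%. Of these, 56 varied less than miR-26a-5p and 97 less than miR-26b-5p. Among the 98 miRNAs averaging 1000 CPM or more, whose median was 28.6%, 22 and 32 varied less.

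**Figure D2:**
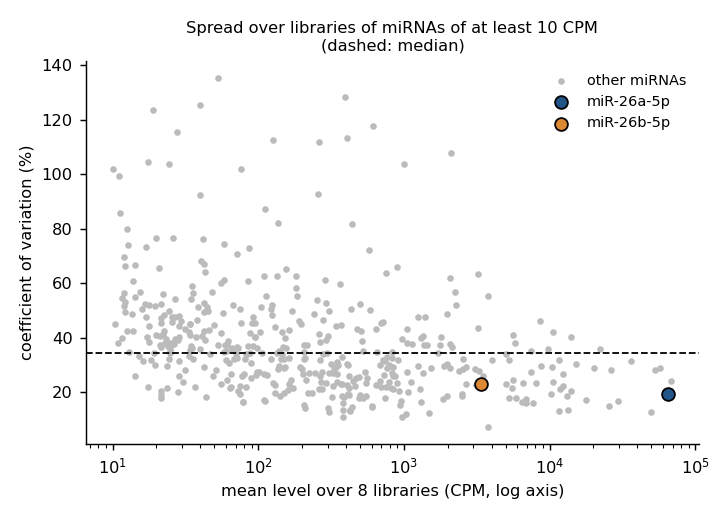
Coefficient of variation over the 8 libraries (y axis, percent) against mean level (x axis, CPM, log scale) for 463 miRNAs, with the 2 miR-26 guides marked and the median of 34.2% as a dashed line. Both guides lie below the median line, at 19.4% for miR-26a-5p and 23.04% for miR-26b-5p.

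The ratio of the paralogs, which share the seed, was compared from library to library. The level of miR-26a-5p was 14.96, 16.2, 19.1 and 33.6 times that of miR-26b-5p in het replicates 1 to 4. In ko replicates 1 to 4 the ratio was 17.3, 16.5, 23.2 and 18.8. The other 7 libraries thus lay close together, and het replicate 4, which had the lowest miR-26b-5p level, stood above all of them. The log2 ratio was 4.31 ± 0.53 in het and 4.23 ± 0.22 in ko (SD, n = 4 each), a difference of -0.08 that the exact two-sided permutation test did not call (p = 0.886, adjusted p = 0.943 over 11 measures). Without ko replicates 1 and 2 the difference was 0.07, and without het replicate 4 it was 0.17.

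The arms of the miR-26b hairpin were far more unequal. miR-26b-5p had 311.7, 625.9, 327.1 and 502.8 times the level of miR-26b-3p in het replicates 1 to 4, and 701.8, 480.8, 423.3 and 1205 times in ko replicates 1 to 4. The last of these rests on 2 reads of miR-26b-3p. The log2 ratio was 8.73 ± 0.49 in het and 9.33 ± 0.68 in ko, which was not past the threshold (exact permutation test, p = 0.229, adjusted p = 0.943). Without ko replicate 4 the difference fell from 0.61 to 0.31. With only sequences of at least 1 CPM on average, it became 1.55 (exact permutation p = 0.0286, adjusted p = 0.157), as this setting drops most of the few miR-26b-3p sequences. Among those dropped, the 23 nt reads with a tail of A, U or UU were found only in ko replicates 1 to 3.

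**Figure D3:**
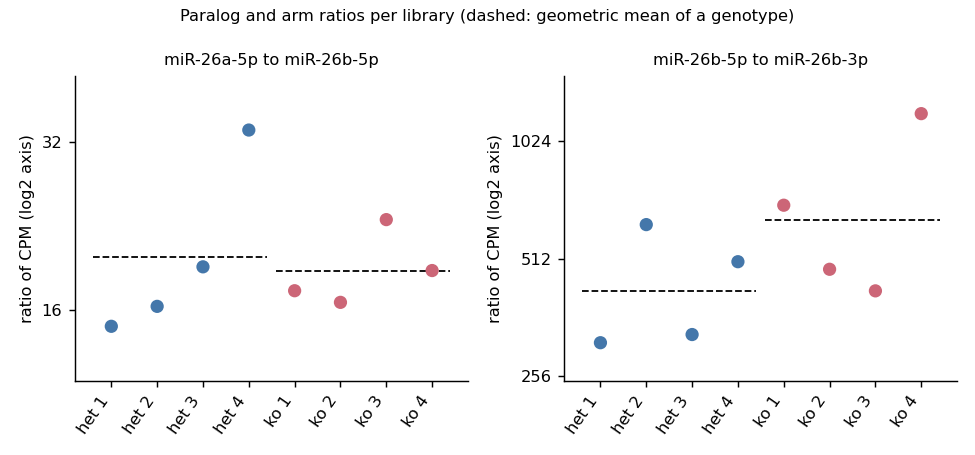
Ratio of miR-26a-5p to miR-26b-5p (left) and of miR-26b-5p to miR-26b-3p (right) in each library, on log2 y axes, with het in blue, ko in red and the geometric mean of a genotype as a dashed line. The paralog ratio reached 33.6 in het replicate 4 and lay between 14.96 and 23.2 in the other 7 libraries.

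The 5′ end, which sets the seed, was almost fixed in both guides. Reads starting at the mature first base were 98.9% ± 0.18 of miR-26a-5p and 98.9% ± 0.16 of miR-26b-5p (SD, n = 8). Another 6mer seed (bases 2 to 7) was carried by 1.27% ± 0.18 of miR-26a-5p reads and 1.23% ± 0.15 of miR-26b-5p reads, a difference the exact sign-flip test over the libraries did not call (p = 0.695). The most frequent shift was a start 1 base late, in 0.513% of miR-26a-5p and 0.672% of miR-26b-5p reads.

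The start position matters for the measure of the study, the 6mer seed viability, a score that gives the percent viability of cells given a small RNA with that seed. The authors' mean over 3 mouse cell lines is 43.0 for the miR-26 seed UCAAGU and 53.0 for the miR-26b-3p seed CUGUUC. A start 1 base late gives CAAGUA, with 72.7, and 1 base early gives UUCAAG, with 68.2. The viability of UCAAGU is below the median of 63.0 over the 3427 seeds in the table, and 24.7% of them score 43.0 or less.

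Most reads with this seed were miR-26a-5p. UCAAGU was second of 3427 seeds by mean CPM and first of the 845 seeds with a viability of 43.0 or less, a bound that is its own score, so that any lower bound leaves it out. It was carried by 5.78, 5.91, 7.13 and 7.82% of reads in het replicates 1 to 4 and by 8.49, 6.83, 7.89 and 4.67% in ko replicates 1 to 4. The genotypes overlapped and their difference of 0.309 percentage points was not called (exact permutation test, p = 0.771, adjusted p = 0.943). Without ko replicates 1 and 2 it was -0.383, and without ko replicate 4 it was 1.08. Among reads at or below this bound, the share of UCAAGU was 31.8% ± 3.5 in het and 34.4% ± 5.8 in ko, with ko replicate 1 highest at 42.4%. Within the seed, miR-26a-5p made up 94.0% ± 1.1 of the reads, miR-26b-5p 5.0% ± 1.1 and reads with no mature name 1.03% ± 0.099 (SD, n = 8).

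Apart from their level, the paralogs differed at the 3′ end of their reads. Their most abundant reads are shown, lower case for bases that match the hairpin and capitals for an added tail.
miR-26a-5p, 22 nt: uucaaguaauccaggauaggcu
miR-26a-5p, 21 nt: uucaaguaauccaggauaggc
miR-26a-5p, 20 nt: uucaaguaauccaggauagg
miR-26a-5p, U tail: uucaaguaauccaggauaggcuU
miR-26a-5p, A tail: uucaaguaauccaggauaggcA
miR-26b-5p, 22 nt: uucaaguaauucaggauagguu
miR-26b-5p, 21 nt: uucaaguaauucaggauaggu
miR-26b-5p, U tail: uucaaguaauucaggauagguuU
miR-26b-5p, A tail: uucaaguaauucaggauagguuA
These are the reads that made up at least 3% of their miRNA over the 8 libraries. In miR-26a-5p the 22 nt read had 47.6% ± 2.3 of all reads, the 21 nt read 23.3% ± 2.7 and the 20 nt read 11.2% ± 2.3 (SD, n = 8). In miR-26b-5p the 22 nt read had 60.01% ± 2.7 and the 21 nt read 19.7% ± 1.8, and the 20 nt read did not reach 3%. The leading miR-26b-5p read was thus 1 base longer than the RefSeq mature sequence.

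Among reads with the mature start, the part matching the hairpin ended at base 22 in 56.0% ± 3.0 of miR-26a-5p and in 71.3% ± 2.5 of miR-26b-5p. It ended at base 20 in 13.0% ± 2.6 of miR-26a-5p, from 8.48% to 16.2%. For miR-26b-5p this share was 4.39% ± 1.0, from 3.03% to 5.61%, but it holds reads with the miR-26a-5p base at position 21, which run on past base 20. Without them it was 2.86% ± 0.97, from 1.37% to 4.04%, and the share ending at base 22 was 72.4% ± 2.5. The ranges of the paralogs did not overlap at base 20 with or without these reads. The mean read length was 21.57 ± 0.07 nt for miR-26a-5p and 21.85 ± 0.03 nt for miR-26b-5p. miR-26b-5p was longer in 8 of 8 libraries, by 0.283 ± 0.064 nt (exact two-sided sign-flip test, p = 0.00781, the smallest that 8 libraries allow, adjusted p = 0.0156 over 4 measures). Reads equal to the RefSeq mature sequence were 47.6% in miR-26a-5p and 19.7% in miR-26b-5p, lower in miR-26b-5p in 8 of 8 libraries (exact sign-flip test, p = 0.00781, adjusted p = 0.0156), a measure that depends on the RefSeq length of each. Without the 2 deepest libraries the length difference was 0.273 nt, again with miR-26b-5p longer in every library, and the share of mature reads differed by -27.0 percentage points. Both then had the smallest p that 6 libraries allow (exact sign-flip test, p = 0.03125) and an adjusted p of 0.0625, so that neither was called.

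**Figure D4:**
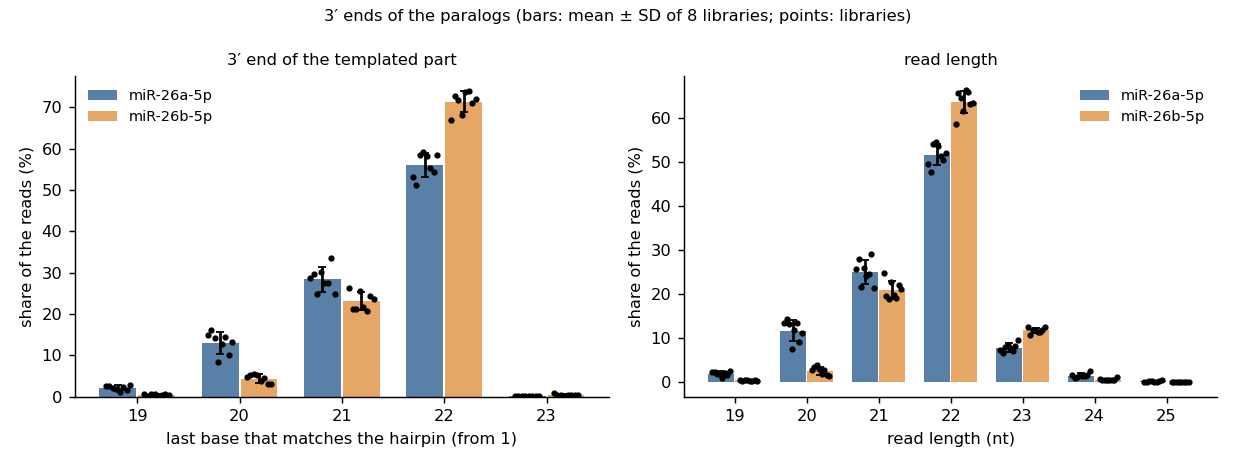
Share of reads (y axis, percent) by last base matching the hairpin, for reads with the mature start (left), and by read length (right) for miR-26a-5p and miR-26b-5p, as mean ± SD of 8 libraries with each library as a point. miR-26b-5p ended more at base 22 (71.3% against 56.0%) and less at base 20 (4.39% against 13.0%, or 2.86% without reads that have the miR-26a-5p base at position 21).

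Untemplated 3′ tails of up to 5 bases were found on 14.6% ± 1.7 of miR-26a-5p reads and on 15.8% ± 1.0 of miR-26b-5p reads. For miR-26a-5p the share was 14.7, 12.9, 13.9 and 15.0% in het replicates 1 to 4 and 13.6, 13.3, 14.9 and 18.2% in ko replicates 1 to 4. For miR-26b-5p it was 15.9, 14.4, 16.0 and 17.0% in het and 15.0, 14.9, 15.6 and 17.4% in ko. The share was higher in miR-26b-5p in 7 of 8 libraries, by 1.21 percentage points (exact sign-flip test, p = 0.0234, adjusted p = 0.0312). This call did not hold without het replicate 1, 2, 3 or 4 or without ko replicate 1 or 2, each of which gave an adjusted p of 0.0625. Reads named miR-26b-5p that have the miR-26a-5p base at position 21 were 1.56% ± 0.32 of miR-26b-5p and counted as tailed. Without them the share was 14.4% in miR-26b-5p beside 14.6% in miR-26a-5p, and the difference was -0.12 (exact sign-flip test, adjusted p = 0.930). With only tails of A alone or of U alone, which leaves out these tails but also those of both A and U, the difference was 0.783 percentage points and was called (higher in miR-26b-5p in 7 of 8 libraries, exact sign-flip test, p = 0.03125, adjusted p = 0.0417). The call thus depended on which tails were counted. Without single libraries the difference stayed at 1.09 to 1.50 percentage points.

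Tails of A alone were on 7.25% ± 0.80 of miR-26a-5p and 7.83% ± 0.55 of miR-26b-5p reads, and tails of U alone on 5.20% ± 0.55 and 5.39% ± 0.60. Tails with both A and U were on 1.51% ± 0.43 and 0.555% ± 0.32, and tails with C or G on 0.603% ± 0.054 and 1.99% ± 0.39, the latter holding the reads with the miR-26a-5p base at position 21. A tail that equals the next hairpin base cannot be seen, which hides a U added after base 21 in both paralogs and after base 20 in miR-26b-5p. After base 22 the hairpins have G in both paralogs, so that an added A or U is seen there, although a U added after base 21 still counts as matching. Of the reads ending at base 22, 13.7% ± 1.5 of miR-26a-5p and 14.6% ± 0.98 of miR-26b-5p had a tail, a difference of 0.932 percentage points (exact sign-flip test, adjusted p = 0.0521). Their tails began with A in 4.69% ± 0.85 of miR-26a-5p and 6.91% ± 0.75 of miR-26b-5p, and with U in 8.92% ± 0.84 and 7.61% ± 0.93. These first bases were not tested.

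**Figure D5:**
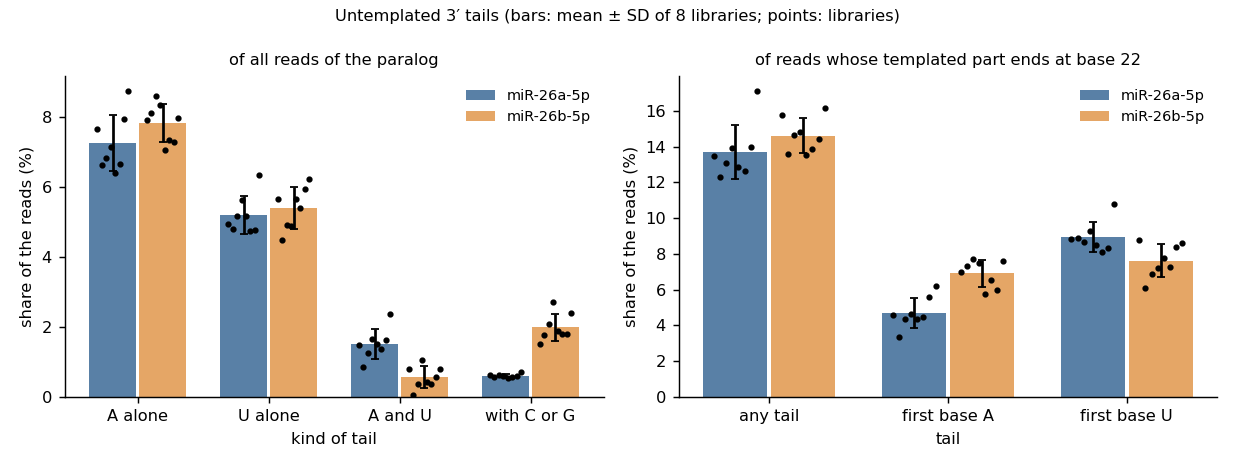
Share of reads with an untemplated 3′ tail (y axis, percent) by kind of tail among all reads (left) and by first tail base among reads whose matching part ends at base 22 (right), as mean ± SD of 8 libraries with each library as a point. Tails of A alone and of U alone were within 1 percentage point of each other between the paralogs, and among the reads ending at base 22 a first base A was on 4.69% of miR-26a-5p and 6.91% of miR-26b-5p.

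No isoform passed the test between the genotypes. Of the 566 sequences, 77 had a mean of at least 10 CPM, and these carried 99.2% of the miR-26a-5p level and 96.7% of that of miR-26b-5p. limma over all 3299 reads called 0 of the 77 (lowest adjusted p = 0.970), against 0.485% of all reads, and at an unadjusted p under 0.05 also 0 of 77, against 5.30%. The same 77 had 0 calls with edgeR and with DESeq2, which called 14 and 27 of the 3299 reads. The 22 nt read of miR-26a-5p measured 30285 ± 6850 CPM in het mice and 31727 ± 8009 CPM in ko mice (log2 fold change 0.06, SE 0.26). For the 22 nt read of miR-26b-5p the levels were 1898 ± 407 and 2182 ± 650 CPM (log2 fold change 0.18, SE 0.30). Among the 9 named isoforms of the guides, the largest difference was that of the U-tailed miR-26b-5p read, which measured 154.9 ± 38.9 CPM in het mice and 196.1 ± 47.0 CPM in ko mice (log2 fold change 0.34, SE 0.32, limma adjusted p = 0.973). Without het replicate 4 this value was 0.175, without ko replicate 1 it was 0.207, and that of the 22 nt miR-26b-5p read was 0.006 and 0.023.

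Of the 11 measures per library, 1 had groups that did not overlap, the mean length of miR-26b-5p reads. Reads averaged 21.81, 21.83, 21.84 and 21.83 nt in het replicates 1 to 4 and 21.88, 21.87, 21.85 and 21.89 nt in ko replicates 1 to 4. The difference was 0.043 nt (exact permutation test, p = 0.0286, the smallest that 4 against 4 allows) and did not pass adjustment over the 11 measures (adjusted p = 0.314), where a lone measure at the smallest p cannot reach less. Without single libraries it was 0.0375 to 0.0488 nt. The share of miR-26b-5p reads ending at base 20, which was not tested, was 4.71, 5.19, 5.61 and 5.32% in het and 3.77, 4.44, 3.08 and 3.03% in ko, without overlap. It draws on the same reads as the mean length and was picked after its values were seen, among many such shares. Without reads that have the miR-26a-5p base at position 21 it was 3.10 to 4.04% in het and 1.37 to 3.11% in ko, and het replicate 4 and ko replicate 2 were level. For miR-26a-5p het reads averaged 21.55 ± 0.09 nt and ko reads 21.59 ± 0.05 nt (exact permutation test, p = 0.400, adjusted p = 0.943). This difference, also 0.043 nt, was 0.0106 nt without het replicate 2 and 0.0795 nt without het replicate 4.

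miR-26b-3p was too scarce for a test of its isoforms. Its 9 sequences held 288 reads over the 8 libraries, and the 22 nt RefSeq form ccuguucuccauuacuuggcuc had 40.9% of the summed level and the 21 nt form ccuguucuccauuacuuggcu 29.96%. The longer form was at 0 in het replicate 2 and the shorter form at 0 in het replicate 1 and ko replicate 4, libraries with at most 8 reads of this miRNA.

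The miRNAs whose levels ran most evenly with each member were named by the SD over the 8 libraries of the log2 ratio of CPM + 1. For miR-26a-5p they were miR-543-5p (SD 0.13), miR-335-3p (SD 0.14) and miR-873a-3p (SD 0.19) of 462 miRNAs, whose median SD was 0.57. For miR-26b-5p they were miR-154-3p (SD 0.020), miR-382-3p (SD 0.13) and miR-195a-5p (SD 0.18), with a median of 0.63. For miR-26b-3p they were let-7b-3p (SD 0.35), miR-449a-5p (SD 0.35) and miR-421-3p (SD 0.36) of 463. The ratio of the paralogs had an SD of 0.37, below both medians, which put miR-26b-5p at place 79 for miR-26a-5p and miR-26a-5p at place 62 for miR-26b-5p. All these ratios share the same 8 libraries, and each list holds the lowest values of all that were compared. Counting error was not separated from these SDs. The mean level was 78.0 CPM for miR-543-5p and 551.5 CPM for miR-154-3p, where 1 read of het replicate 1 was worth 1.93 CPM.

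miRNAs linked to REST, the partner of the Ctdsp phosphatases that host miR-26, gave 0 calls in either direction among 9 tested by limma, against 1.30% of all miRNAs. At an unadjusted p under 0.05 there were also 0, against 7.34%, and edgeR and DESeq2 called 0, against 4 and 9 of the 463 miRNAs. Of the 9, 4 had a positive and 5 a negative log2 fold change, with a median of -0.13 beside -0.09 for all miRNAs. miR-9-5p, which targets REST, measured 49088 ± 13044 CPM in het mice and 65005 ± 16975 CPM in ko mice (log2 fold change 0.41, SE 0.25, limma adjusted p = 0.796). miR-124-3p, the neuronal miRNA that REST represses, was at 54557 ± 14048 and 50461 ± 17458 CPM (log2 fold change -0.13, SE 0.28, limma adjusted p = 0.975). miR-153-3p had 6089 ± 1379 and 3998 ± 1446 CPM and miR-29b-3p 16699 ± 3002 and 11391 ± 6787 CPM, both with a limma adjusted p of 0.613.

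Of the marker lists for other cells in the tissue, the epithelial one (miR-200a-3p, miR-200b-3p, miR-429-3p, miR-141-3p and miR-200c-3p) moved with the genotype. All 5 had negative log2 fold changes, as had 275 of the 463 miRNAs. limma called 3 of them (miR-200a-3p, miR-200b-3p and miR-429-3p; lowest limma adjusted p = 0.000127), against 1.30% of all miRNAs. DESeq2 called 3 and edgeR 2, against 9 and 4 of the 463 miRNAs. The summed level of the 5 was 2177 to 8424 CPM in het and 163.2 to 1718 CPM in ko. limma, edgeR and DESeq2 called 0 of the 19 markers tested for neurons, oligodendrocytes, microglia and other myeloid cells, endothelium, choroid plexus, smooth muscle or erythroid cells, against 1.30% of all miRNAs by limma. Over all 463 miRNAs, edgeR called 4 and DESeq2 9. An unadjusted limma p under 0.05 was found for 3 of the 19 (miR-138-5p, miR-211-5p and miR-451a), against 7.34% of all miRNAs. miR-211-5p, a choroid plexus marker, was at 0 in at least 1 library. The part of the epithelial difference in the miR-26 values was not tested.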

How the data were processed

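The deposited values are CPM per distinct sequence, made by the authors with the SPOROS pipeline. Adapters were trimmed with Trim Galore per the labels, reads were matched to small RNAs by BLAST and rare reads were removed. The genome build was not given in the sources used here. The deposited viability score is the authors' mean over 3 mouse cell lines. Of the values, 100.0% were whole multiples of 1 read (within 0.1 read), which gave the recovered reads and depths. Reads carry no molecular identifiers, so intervals and floors of 3 reads cover counting error only.

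CPM were summed per miRNA name. Features averaging 10 CPM or more entered limma 3.58.1 (trend, robust) in R 4.3.3 on log2(CPM + 1), with Benjamini-Hochberg adjustment and a threshold of 0.05. These fold changes understate those of low features. edgeR 4.0.16 and DESeq2 1.42.0 were run on recovered reads as alternatives. The 11 measures per library were compared by exact permutation tests, and 4 of them between the paralogs by exact sign-flip tests. A tail is the 3′ part, of at most 5 bases, after the longest match (at least 14 bases) to the RefSeq hairpin. The fits were tested on simulated data. Python 3.11.15, numpy 2.4.6, scipy 1.17.1, pandas 2.3.3 and matplotlib 3.10.9 did the rest.

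Named were the 3 members, their reads of at least 3%, the 3 miRNAs with the steadiest ratio to each, and the REST and marker lists. miR-26a-1-3p, miR-26a-2-3p and the reads with single changes fall outside this rule and were picked after their values were seen. The members and lists were chosen with earlier results of these data known. Each library was a different mouse per the labels.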

Additional observations from a re-analysis of the deposited data

Results flagged for a closer look

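The level of miR-26b-5p in het replicate 4 was 2265 CPM, far from the other 3 het libraries, which lay between 3444 and 3610 CPM. Its gap to the nearest of them was 0.876 of the range of the group, above the 95% critical value of Dixon for a group of 4. It was 1 flag among 28 groups of 4 looked at (3 levels and 11 measures in each genotype), and chance alone gives about 1 in 20. miR-26a-5p was highest of the het libraries in the same sample, at 76023 CPM, so that the library also had the highest paralog ratio, 33.6. The sample was kept, and without it the log2 fold change of miR-26b-5p was -0.04 in place of 0.12.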

How the results depend on the processing

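No alternative called a member between the genotypes: a pseudocount of 0.1 or 10, a minimum mean of 1 or 100 CPM, centring, edgeR, DESeq2 and leaving out each library all gave 0 called miRNAs and 0 called reads. The sign of small differences was not stable. Leaving out 1 library at a time, the log2 fold change ran from -0.062 to 0.223 for miR-26a-5p and from -0.039 to 0.303 for miR-26b-5p.

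Without the 2 libraries of over 5000000 reads, these values turned to -0.11 and -0.19. So did those of the miR-26a-5p reads of 22 nt (-0.13), 21 nt (-0.13) and 23 nt (-0.11), and of the miR-26b-5p reads of 22 nt (-0.17) and 21 nt (-0.16). The paralog log2 ratio turned to 0.0730, the seed share to -0.383 percentage points, reads equal to the mature sequence to -0.577 for miR-26a-5p and 0.334 for miR-26b-5p, and tailed miR-26b-5p reads to 0.673. The 20 nt miR-26a-5p read turned to 0.038 with centring, 0.028 with edgeR and 0.044 with DESeq2, and the A-tailed miR-26b-5p read to 0.008 with centring.

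Between the paralogs, 3 of 4 measures were called. Without the 2 deep libraries 0 were, with differences of 0.273 nt in length, -27.0 points in reads equal to the mature sequence and 1.12 points in tailed reads. The first 2 had the smallest p that 6 libraries allow, 0.03125, and an adjusted p of 0.0625. The next 2 alternatives were chosen after seeing the data. Without miR-26b-5p reads that end like miR-26a-5p the tail difference was -0.120, and between the genotypes it turned to 0.0747 for miR-26b-5p. With reads ending at base 22 it was 0.932 and not called. With only tails of A alone or of U alone it was 0.783 and called. With reads of 19 to 25 nt the difference in other seeds turned to 0.0171.

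Leaving out 1 library, the ranges between the paralogs were 0.269 to 0.299 nt, -28.7 to -27.3 points, 1.09 to 1.50 points in tailed reads and -0.107 to 0.0352 points in other seeds, with 2 or 3 measures called. Between the genotypes they were -0.216 to 0.172 for the paralog log2 ratio, 0.305 to 0.808 for the arm log2 ratio, -0.197 to 1.08 points for the seed share, -0.702 to 1.32 and -1.53 to 0.158 points for mature miR-26a-5p and miR-26b-5p reads, -0.145 to 1.47 and -0.641 to 0.300 points for their tailed reads, and -0.00784 to 0.156 points for other seeds of miR-26b-5p. For single reads they were -0.069 to 0.238, -0.151 to 0.274 and -0.159 to 0.162 for miR-26a-5p of 22, 21 and 20 nt, -0.106 to 0.155 and -0.071 to 0.283 with a U or an A tail, 0.006 to 0.374 and -0.062 to 0.232 for miR-26b-5p of 22 and 21 nt, and 0.175 to 0.493 and -0.227 to 0.087 with a U or an A tail. The causes were not tested.

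No pairing by replicate number was seen: deviations of same-numbered libraries correlated at 0.04, 0.29, -0.18 and 0.25. Those of other het and ko pairs ran from -0.50 to 0.41, and so few values cannot exclude a pairing. With the replicate block, the log2 fold changes were again 0.04 and 0.12 with 0 members called, and 0 of 11 measures passed, where 4 pairs cannot give p below 0.125. The block raised the calls over all miRNAs from 6 to 10 and over all reads from 16 to 26. Over all reads, DESeq2 called 27, a mean of at least 1 CPM 35 and of at least 100 CPM 5, the fit without the deep libraries 9, and leaving out het replicates 2 and 4 gave 10 and 9. Of the 9 steadiest partners, 7 were shared when the SD was taken within genotypes. Among the members, miR-26b-3p had the fewest reads.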

Other observations

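Some reads of the 2 miR-26a copies can be told apart by bases before the mature start. Reads with the bases of Mir26a-2 there had 57.7 ± 18.3 CPM over 17 sequences, and those of Mir26a-1 had 21.3 ± 6.1 CPM over 11 sequences (SD, n = 8). The level from Mir26a-2 was the higher one in 8 of 8 libraries, with het replicate 1 closest at 25.1 and 23.2 CPM. Another 107 sequences with early starts matched both copies or neither and had 149.0 ± 42.3 CPM. The arms opposite the guide had the same order, with 6.92 ± 1.46 CPM for miR-26a-2-3p and 0.694 ± 0.96 CPM for miR-26a-1-3p, which was at 0 in 5 of 8 libraries. These reads are a small part of miR-26a-5p and were not tested.

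The miR-26a-5p read with C21U, a paralog difference, and no other change keeps the name miR-26a-5p in the table. That with C11U, the other paralog difference, is named miR-26b-5p and had 26.7 CPM, 0.0859% ± 0.014 of the unchanged 22 nt read. The read with C12U, at the neighbouring base, matches no paralog, has no mature name and had 27.4 CPM, 0.0883% ± 0.010 (SD, n = 8). Among single changes at bases 2 to 19, A-to-G came to a summed 0.587% over 7 positions, U-to-C to 0.222% over 4 and C-to-U to 0.221% over 3. In all, 405 sequences that matched a miR-26 hairpin had no mature name, and they came to 968.3 CPM on average, 1.42% of the level of the members.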
